A study of Mus musculus with 55 samples.

Results

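The 10 genes described here are general and primed stem cell identity genes, taken by symbol from the deposited pre-mRNA tables: Sall4, Zscan10, Otx2, Utf1, Trim28, Dppa2, Dppa4, Dppa3, Lin28a and Dppa5a. They are 10 of the 10574 genes listed in either table. The CTCF-AID table, with 10237 genes, lists all 10, and the CCNA-GFP table, with 9911 genes, lists 8 of them, so that Otx2 and Dppa3 were followed in CTCF-AID cells only. The study followed how transcription resumes when mouse embryonic stem (ES) cells leave mitosis and asked what CTCF, an architectural DNA-binding protein, contributes to it. Pre-mRNA, the unspliced transcript, is short-lived and was used as a readout of transcription. It was measured by RNA-seq in 55 libraries and is given in TPM, a transcript abundance that corrects for gene length.

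All cells were E14Tg2a ES cells of strain 129/Ola, grown in serum and LIF. The 19 CCNA-GFP libraries came from a line with the CCNA-GFP reporter of the cell cycle that received no IAA, with 3 replicates each for the mitotic and the asynchronous state, 1 library for 50 min post-release and 2 for every other time (20, 30, 40, 60, 90 or 120 min). The 36 CTCF-AID libraries came from a published clone in which CTCF carries a degron, so that IAA (auxin) causes its degradation. Both arms carry the degron, and each arm, −IAA and +IAA, has 3 replicates for the mitotic and for the asynchronous state and 2 for every time point, which are the same as in CCNA-GFP except that 30 min is missing. Mitotic and released cells of both lines had been treated with the CDK1 inhibitor RO-3306 at 10 µM for 4 h and then with nocodazole, which blocks the spindle, at 50 ng/ml for 4 h, and were collected by shake-off. IAA at 0.5 mM was present for the last 2 h before release and throughout the release, and for 4 h in asynchronous cells. IAA removes the CTCF protein and not its RNA, so the pre-mRNA of Ctcf is no check of the depletion. The 2 lines come in separate tables, and values of the lines are set side by side without a test.

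Sall4 and Zscan10 encode zinc finger transcription factors that sustain the self-renewal of ES cells, and Sall4 also recruits the NuRD corepressor complex. Otx2 encodes a homeodomain factor that is known for driving ES cells from naive to primed pluripotency. Utf1 encodes a chromatin-associated protein of undifferentiated cells, and Trim28 (KAP1) the corepressor through which KRAB zinc finger proteins silence retrotransposons. Dppa2 and Dppa4 encode SAP-domain proteins that bind each other and keep developmental promoters poised, and Dppa3 (Stella) encodes a protein that protects DNA methylation marks in the early embryo. Lin28a encodes an RNA-binding protein that blocks the maturation of let-7 microRNAs, and Dppa5a (Esg1) encodes a KH-domain RNA-binding protein. Of the defining ES cell markers, Pou5f1 and Nanog were listed in both lines (2 of 3). Their summed level was 8.25 to 31.6 TPM over the CCNA-GFP libraries and 10.9 to 30.2 TPM over the CTCF-AID libraries. The lowest value of either gene was 3.10 TPM. None of the 5 extraembryonic endoderm markers was listed. In the CTCF-AID table, which lists the most markers, those of mesoderm (2 of 4) summed to at most 5.55 TPM per library, those of trophoblast (1 of 3) to 3.51 TPM, those of fibroblasts (3 of 5) to 4.15 TPM and those of neural cells (2 of 4) to 12.0 TPM.

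The listed TPM summed to between 13746.9 and 43370.2 per library, and the all-gene level thus moved with the stage. The median log2 difference from mitosis over all listed genes was 0.79 at 60 min, 0.68 at 120 min and 0.33 in asynchronous CCNA-GFP cells, and 0.63, 0.34 and 0.12 in CTCF-AID −IAA cells. When every library was instead scaled to an equal TPM sum, here called the same total, that median was 0.02 and 0.06 at 60 min. The listed TPM are those of the unspliced isoforms, and the study describes their rise after mitosis as a global burst of transcription. How far a scaling of the libraries adds to the differences in the sum is not given in the sources used here. A rise in TPM as deposited is thus a rise on the deposited scale and need not be one in absolute level. Scaling to the same total takes out any change that all listed genes share. A gene called lower under it lost in its share of the listed sum, which need not be a fall in its own transcription. Same-total values are given beside a part of the main values, and a size without one refers to the deposited scale. TPM keep no read counts, so the depth behind a value is unknown, and the error given is the one between libraries.

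The promoters of Zscan10, Utf1 and Lin28a are shown because Zscan10 and Utf1 stayed above their mitotic level after the first hour in both lines. Lin28a was called above it only at 90 min in CCNA-GFP cells. Dppa4 and Dppa5a also stayed above their mitotic level in both lines, and no window was matched for them. RefSeq promoter windows of 250 bases before and 50 after a start site (build GRCm38.p6) were matched for 5 of the 10 genes. Capitals mark matches, on either strand, to 4 sets of letters: TATAAA (13.6% of 32851 such windows), the GC box GGGCGG (35.7%), the octamer ATGCAAAT (1.74%) and CCANNAGG, a stretch of the CTCF core motif (21.3%). The sequences read 5′ to 3′ on the gene's strand.
Zscan10, chr17:23600576-23600875, plus strand: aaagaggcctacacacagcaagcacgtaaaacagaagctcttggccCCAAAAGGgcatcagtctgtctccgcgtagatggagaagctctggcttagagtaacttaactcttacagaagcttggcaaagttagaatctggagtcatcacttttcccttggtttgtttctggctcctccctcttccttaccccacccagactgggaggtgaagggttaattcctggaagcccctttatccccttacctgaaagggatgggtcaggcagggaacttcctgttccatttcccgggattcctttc
Utf1, chr7:139943606-139943905, plus strand: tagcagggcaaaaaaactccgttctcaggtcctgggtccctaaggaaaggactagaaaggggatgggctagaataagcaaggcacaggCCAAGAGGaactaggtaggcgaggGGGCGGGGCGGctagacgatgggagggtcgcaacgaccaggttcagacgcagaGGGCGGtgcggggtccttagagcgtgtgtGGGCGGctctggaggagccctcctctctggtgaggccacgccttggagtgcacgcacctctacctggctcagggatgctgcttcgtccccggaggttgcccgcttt
Lin28a, chr4:134018767-134019066, minus strand: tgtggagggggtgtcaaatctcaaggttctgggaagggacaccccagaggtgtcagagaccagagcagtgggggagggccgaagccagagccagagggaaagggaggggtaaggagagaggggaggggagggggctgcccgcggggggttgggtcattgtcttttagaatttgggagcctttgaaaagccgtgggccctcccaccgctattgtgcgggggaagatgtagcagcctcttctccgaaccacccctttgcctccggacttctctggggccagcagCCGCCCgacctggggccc
The Zscan10 window holds 4 CpG dinucleotides and a single match, CCANNAGG at position −204 from the start site. The Utf1 window holds 17 CpG, 4 GC boxes, of which the first 2 overlap, and CCANNAGG at −162. Lin28a has 10 CpG and a single GC box, on the opposite strand at position 32. The median window has 7 CpG. The Trim28 window holds 2 GC boxes and 1 of the 4 Otx2 windows holds TATAAA. A match to these letters is not a binding site, and nothing is read from a window without one.

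Most of the 10 genes rose within the first hour of release, as did most listed genes. In CCNA-GFP cells none of the 8 listed genes was called against mitosis at 20 or 30 min (limma, adjusted p under 0.05, where 0% and 0.303% of all genes were called higher), and all 8 were higher at 40, 50, 60 and 90 min. Of all 9911 genes 49.3%, 66.3%, 88.3% and 89.1% were higher at these times. Under the same total the counts were 2, 2, 2 and 1 of 8, against 23.7%, 27%, 36.4% and 31.8% of all genes, and at 90 min Sall4 and Lin28a were called lower (−0.57 and −0.56). At 120 min and in asynchronous cells 7 of 8 were higher, against 90.2% and 70.4% of all genes, and the exception was Lin28a at both. Scaled to one sum, 4 were higher and 2 lower at 120 min (Sall4 and Lin28a at −0.44 and −0.91), against 28.7% and 23.5% of all genes, and 6 were higher and 1 lower in asynchronous cells, against 24.8% and 20.3%. Of the 10 genes in CTCF-AID −IAA cells 0 were called at 20 min, where 0% of all genes were, and 9 of 10 were higher at each of 40, 50 and 60 min, where 63.3%, 79.1% and 84.8% of all genes were. These were 3, 2 and 3 of 10 under the same total, against 33.3%, 40.7% and 39.4% of all genes, while 3, 4 and 4 of 10 were called lower, against 36.7%, 33.6% and 31.1%. Otx2 and Dppa3 are among the 9, and since they entered the table through their released cells, their rises and falls are no evidence of their own here or in the later counts. At 90 and 120 min 4 of 10 were higher, against 74.8% and 69.6% of all genes, and 1, Lin28a, was lower, against 3.37% and 3.15%. Scaled to the same total, 3 were higher at both times (34.5% and 32% of all genes), and lower were 3 at 90 min (Lin28a −1.48, Dppa2 −0.60 and Sall4 −0.43) and 4 at 120 min (these and Trim28), against 25.6% and 25.9%. In asynchronous cells 6 of 10 were higher (34.3% of all genes) and Lin28a was lower (5.25%), and with one sum 5 were higher and 2 lower (27.2% and 21.4%). Without the replicate block 2 of 8 genes were called at 40 min in CCNA-GFP and 5 of 10 in CTCF-AID −IAA, and 5 of 8 were without CCNA-GFP replicate 1 or 2. For these fits the share of all genes called is not given here, so the counts are not set against one. At 20 min, with the block and all replicates, 1 of the 8 genes in CCNA-GFP and 0 of the 10 in CTCF-AID −IAA had an unadjusted p under 0.05, as had 253 of 9911 and 397 of 10237 genes. All stages of a line share the mitotic libraries, and 50 min in CCNA-GFP is 1 library that was assumed to vary like the others.

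**Figure D1:**
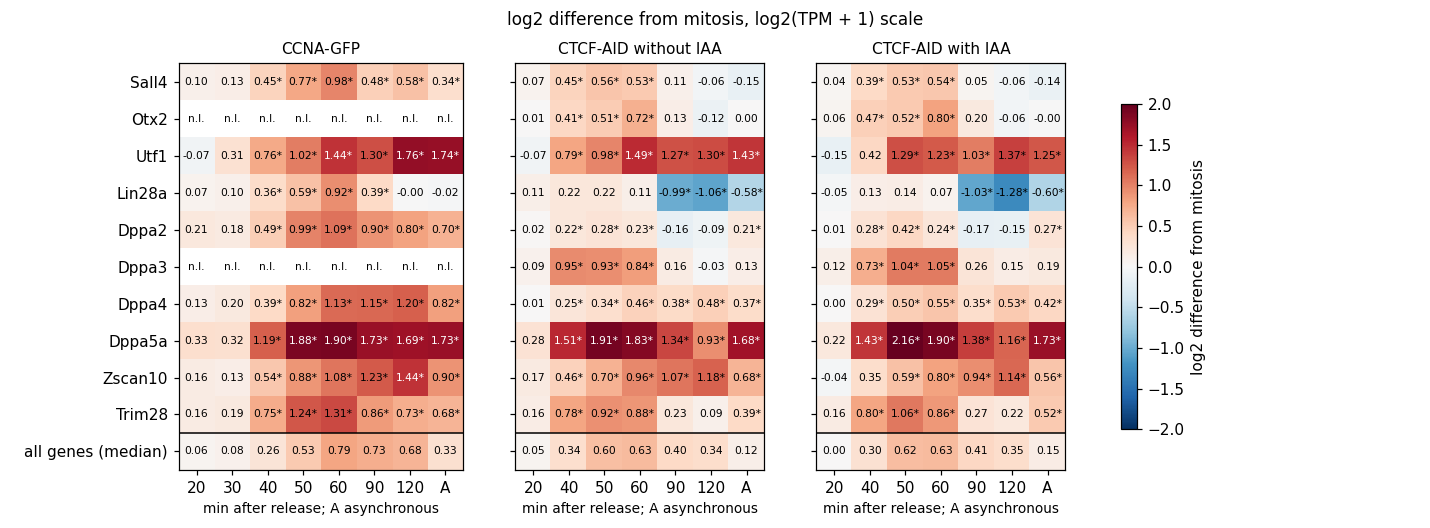
Log2 difference from mitosis on the log2(TPM + 1) scale for each gene (rows) and stage (columns) in CCNA-GFP, CTCF-AID −IAA and CTCF-AID +IAA cells. Asterisks mark calls by limma at an adjusted p under 0.05, n.l. marks genes without a row in that table, and the bottom row is the median of all listed genes. Dppa5a and Utf1 have the highest values of the 60 min columns, and Lin28a is the only gene with called negative values. Under the same total, the 60 min values of Sall4 and Lin28a turn negative in all 3 panels, those of Dppa2 and Dppa4 in both CTCF-AID panels and that of Zscan10 in CCNA-GFP and in CTCF-AID +IAA.

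How far a gene rose at 60 min differed among the 10. In CCNA-GFP cells the log2 differences ran from 0.92 for Lin28a to 1.90 for Dppa5a with a median of 1.11, and all 8 lay above the all-gene median of 0.79. Across the CTCF-AID −IAA values they ran from 0.11 for Lin28a to 1.83 for Dppa5a with a median of 0.78, and 6 of 10, Otx2 and Dppa3 included, lay above the all-gene median of 0.63. Under the same total the CCNA-GFP all-gene median was 0.02. Dppa5a, Trim28, Utf1 and Dppa2 then lay above it, and Dppa4 (0.0074), Zscan10 (−0.14), Lin28a (−0.19) and Sall4 (−0.22) below it. The genes still called higher at 60 min on that scale were Dppa5a and Trim28 in CCNA-GFP, and Dppa5a, Utf1 and Dppa3 in CTCF-AID −IAA. The call of Dppa3 is no evidence of its own, since it was listed through its released cells. Sall4, Lin28a, Dppa2 and Dppa4 were then called lower in CTCF-AID −IAA.

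Before this rise, the mitotic level of most genes was below that of asynchronous cells. In CCNA-GFP cells the mean mitotic level was 24.6% of the asynchronous mean for Utf1 and 26.4% for Dppa5a, 48.6% to 49.2% for Dppa2, Dppa4, Zscan10 and Trim28, 74.9% for Sall4 and 102% for Lin28a. Utf1 and Dppa5a lay at percentiles 1.17 and 1.43 of this ratio over all genes, and Lin28a at percentile 92.2. The same genes stood in CTCF-AID −IAA cells at the ends of the range, with 26.9% for Dppa5a, 33.9% for Utf1 and 164% for Lin28a. These ratios and the differences from mitosis contain the same mitotic libraries.

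Among levels at the same stage, mitotic CCNA-GFP cells had Zscan10, Dppa5a, Sall4 and Utf1 at means of 4.42 to 5.57 TPM with overlapping replicates, Lin28a and Dppa4 at 3.16 and 3.07 TPM, and Trim28 and Dppa2 at 1.53 TPM each. At 60 min Dppa5a stood apart at the top with 22.5 ± 2.44 TPM (SD, n = 2), followed by Utf1, Zscan10 and Sall4 at 12.7, 11.7 and 10.6 TPM, of which neighbours overlapped. In asynchronous cells Dppa5a and Utf1 led with 19.9 and 18.0 TPM, and Dppa2, Trim28 and Lin28a were lowest and overlapped at 3.10 to 3.15 TPM. In CTCF-AID cells Otx2 and Dppa3 were the lowest of the 10 at every one of these stages, with mitotic means of 0.455 and 0.229 TPM (−IAA). TPM is a level per length, so these orders compare genes of different size.

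**Figure D2:**
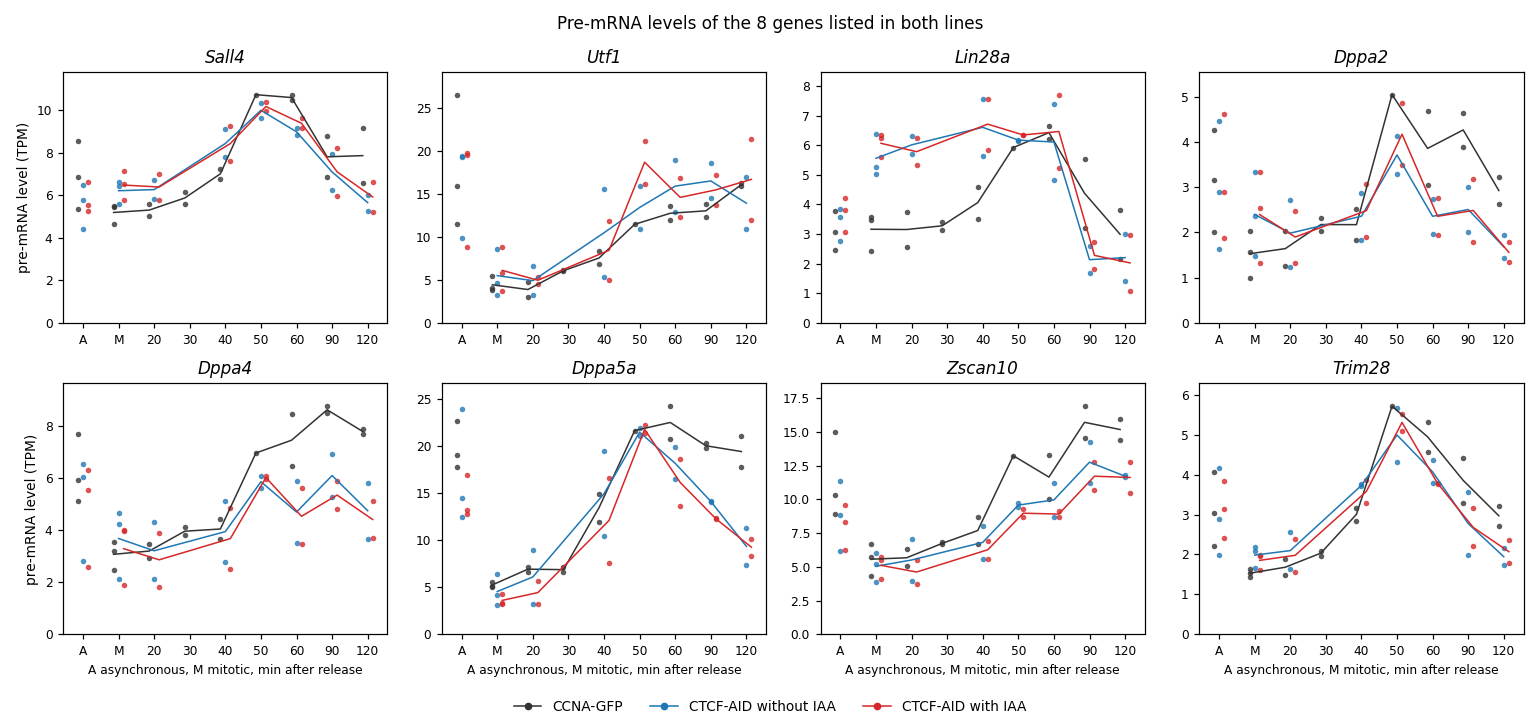
Pre-mRNA level in TPM (vertical axis, linear, from 0) of the 8 genes listed in both lines against stage: A asynchronous, M mitotic, then min post-release. Points are libraries and lines join the means of mitotic and released cells, in black for CCNA-GFP, blue for CTCF-AID −IAA and red for CTCF-AID +IAA. At 90 min Lin28a is at means of 2.13 and 2.28 TPM in the CTCF-AID arms, and Zscan10 is at means of 11.6 to 15.2 TPM at 120 min.

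Among the transcription factors, Sall4 had its highest level at 50 min in both lines, in CCNA-GFP cells with 10.7 TPM in the 1 library of that time. The gene lies on chromosome 2 of GRCm38 from 168748332 to 168767943 on the minus strand. In CCNA-GFP cells it was at 4.67, 5.48 and 5.43 TPM in mitotic replicates 1 to 3 and at 10.7 and 10.5 TPM in replicates 1 and 2 at 60 min, and the groups did not overlap. The difference was 0.98 on the log2 scale (SE 0.15, limma adjusted p = 2.8e-06), and it was still called at 90 and 120 min (0.48 and 0.58, limma adjusted p = 0.0041 and 0.00098). The highest CTCF-AID −IAA mean came at 50 min, with 10.4 and 9.64 TPM in replicates 1 and 3 against 6.61, 5.59 and 6.45 TPM in mitosis, a log2 difference of 0.56 (SE 0.12, limma adjusted p = 0.00025). By 120 min these cells were at 5.27 and 6.04 TPM, and asynchronous cells were at 5.78, 4.41 and 6.49 TPM. The fall from 60 to 120 min was 0.59 on the log2 scale (SE 0.14, limma adjusted p = 0.00076), and it was called in CCNA-GFP cells as well, at a smaller size (log2 difference −0.40, limma adjusted p = 0.047). Leaving out CCNA-GFP replicate 1, the latter was −0.17 and not called, as it was not without replicate 3, without the replicate block, with a pseudocount of 0.1 or under the same total (−0.22). Scaled to the same total, Sall4 was below mitosis in both lines, at −0.22 at 60 min (not called) and −0.57 and −0.44 at 90 and 120 min (both called lower) in CCNA-GFP and at −0.26 and −0.34 at 50 and 60 min in CTCF-AID −IAA (both called lower).

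Zscan10 was called above mitosis from 40 min on in CCNA-GFP and in CTCF-AID −IAA cells and had its highest mean at 90 min. It lies on chromosome 17 from 23600856 to 23611019 on the plus strand. In CCNA-GFP cells its level was 5.71, 4.32 and 6.69 TPM in mitosis, 13.3 and 10.0 TPM at 60 min, 14.5 and 16.9 TPM at 90 min (replicates 1 and 3) and 14.4 and 16.0 TPM at 120 min. Every library from 50 min on was above every mitotic library. Asynchronous cells were at 10.3, 8.94 and 15.0 TPM. At 120 min Zscan10 was thus 1.44 above mitosis on the log2 scale (SE 0.14, limma adjusted p = 3.3e-08; 0.40 with the same total) and 0.54 above asynchronous cells (SE 0.14, limma adjusted p = 0.0022), where 63.4% of all genes were called higher than in asynchronous cells. The CTCF-AID −IAA level went from 6.05, 3.86 and 5.25 TPM in mitosis to 11.2 and 14.3 TPM at 90 min and 11.7 and 11.8 TPM at 120 min, with 8.83, 6.21 and 11.4 TPM in asynchronous cells. The excess over asynchronous cells was 0.50 (SE 0.15, limma adjusted p = 0.0071), and it was not called without replicate 2 in either line. Under the same total the excess was 0.02 in CCNA-GFP and 0.15 in CTCF-AID −IAA, not called in either. From 60 to 120 min the log2 difference of Zscan10 was 0.36 (95% confidence interval 0.06 to 0.67) in CCNA-GFP and 0.22 (−0.12 to 0.56) in CTCF-AID −IAA, not called, while the all-gene medians were −0.11 and −0.27. With the same total it was called higher in both, at 0.53 and 0.59.

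Otx2, the primed-state factor, was highest at 60 min and back at a low level within the 2 h of release. It lies on chromosome 14 from 48657677 to 48673819 on the minus strand. There it overlaps Otx2os1 on the other strand over 5112 bp and Gm49154 on the same strand over 1726 bp. In CTCF-AID −IAA cells it was at 0.631, 0.293 and 0.440 TPM in mitosis, 0.916 and 0.932 TPM at 40 min, 1.15 and 1.07 TPM at 50 min, and 1.17 and 1.61 TPM at 60 min. These 6 libraries lie above the 3 mitotic ones. Otx2 passed the authors' filter through its released cells, since its asynchronous mean is 0.469 TPM and the filter asks for 0.5, so that some rise was a condition for its listing. At 90 min Otx2 was at 0.635 and 0.605 TPM and at 120 min at 0.365 and 0.307 TPM, within the range of asynchronous cells (0.669, 0.152 and 0.585 TPM). The difference from mitosis at 60 min was 0.72 on the log2 scale (0.30 with the same total) and that between 120 and 60 min −0.83, given as a description because the 60 min level bears on the listing. On the log2(TPM + 1) scale changes of a gene at this level are understated: the mean level at 60 min was 3.05 times the mitotic mean, and that at 120 min 0.242 times that at 60 min.

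Utf1 and Trim28, the chromatin-associated proteins, are given next: a fall after the first hour was called for Trim28 in both lines and for Utf1 in neither. Utf1 lies on chromosome 7 from 139943789 to 139945112 on the plus strand, and 92.7% of its 1324 bp are exonic, so that reads of its mature and its unspliced RNA are hard to tell apart. In CCNA-GFP cells Utf1 was at 5.44, 3.79 and 4.05 TPM in mitosis, 13.5 and 11.9 TPM at 60 min, 15.9 and 16.3 TPM at 120 min, and 15.9, 11.5 and 26.5 TPM in asynchronous cells. It was the only gene of the 8 with its highest mean in asynchronous cells, as in 10.4% of all genes. The log2 difference from mitosis was 1.44 at 60 min (SE 0.21, limma adjusted p = 2.5e-06) and 1.76 at 120 min (SE 0.21, limma adjusted p = 3.5e-07). With the same total it was 0.24 at 60 min (not called) and 0.73 at 120 min (called). Utf1 in CTCF-AID −IAA cells was at 8.55, 3.22 and 4.69 TPM in mitosis, 18.9 and 12.9 TPM at 60 min and 16.9 and 10.9 TPM at 120 min. Replicate 1 had the higher level at each of these stages. From 60 to 120 min no change was called in either line, with log2 differences of 0.32 (95% confidence interval −0.16 to 0.79) and −0.19 (−0.62 to 0.24).

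Trim28 lies on chromosome 7 from 12999114 to 13031035 on the plus strand, a Gencode span that overlaps Zbtb45 on the other strand over 6137 bp. In CCNA-GFP cells it was at 1.53, 1.43 and 1.63 TPM in mitosis, 3.16 and 2.85 TPM at 40 min, 5.33 and 4.56 TPM at 60 min and 2.72 and 3.22 TPM at 120 min, and the single 50 min library had 5.71 TPM. All 7 libraries after 30 min up to 90 min were at least at 2.85 TPM. Asynchronous cells were at 3.05, 2.21 and 4.07 TPM, a range that holds the 120 min values. Trim28 was 1.31 above mitosis at 60 min (SE 0.13, limma adjusted p = 1.4e-08) and remained called with the same total (0.33, adjusted p = 0.02). It fell by 0.58 from 60 to 120 min (SE 0.14, limma adjusted p = 0.0033), a call that was lost without replicate 1 (−0.40, adjusted p = 0.20) and without the replicate block. Trim28 in CTCF-AID −IAA cells was at 2.20, 1.66 and 2.10 TPM in mitosis, 4.31 and 5.67 TPM at 50 min, 3.78 and 4.36 TPM at 60 min and 1.73 and 2.15 TPM at 120 min. The last values lie back within the mitotic range, and the fall from 60 min was 0.79 on the log2 scale (SE 0.16, limma adjusted p = 0.00022).

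Dppa2 and Dppa4, whose proteins work as a pair, are neighbours on chromosome 16 with a gap of 9670 bp, both on the plus strand. In CCNA-GFP cells the highest mean of Dppa4 (48283733 to 48294237) came at 90 min and that of Dppa2 (48303908 to 48319723) at 50 min. From 60 to 120 min neither was called there, with log2 differences of 0.07 (95% confidence interval −0.21 to 0.34) for Dppa4 and −0.29 (−0.53 to −0.05) for Dppa2. In CCNA-GFP cells Dppa4 was at 3.21, 2.46 and 3.54 TPM in mitosis, 8.45 and 6.43 TPM at 60 min and 7.89 and 7.66 TPM at 120 min, above the 5.92 and 5.11 TPM of asynchronous replicates 1 and 2 and close to the 7.67 TPM of replicate 3. Its log2 difference from mitosis was 1.13 at 60 min and 1.20 at 120 min (SE 0.12, limma adjusted p = 4.1e-08 and 6.5e-08), and it was 0.37 above asynchronous cells at 120 min (limma adjusted p = 0.012). With the same total it was 0.01 at 60 min and −0.12 against asynchronous cells at 120 min, neither of them called, and 0.24 above mitosis at 120 min (called). Dppa2 was at 1.57, 0.996 and 2.02 TPM in mitosis, 4.68 and 3.04 TPM at 60 min and 3.23 and 2.63 TPM at 120 min, with 5.05 TPM in the 50 min library. The difference from mitosis was 1.09 at 60 min (SE 0.11, limma adjusted p = 1.0e-08) and 0.14 with the same total (adjusted p = 0.12).

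In CTCF-AID −IAA cells Dppa4 was at 4.24, 2.12 and 4.66 TPM in mitosis, 5.87 and 3.51 TPM at 60 min and 5.82 and 3.66 TPM at 120 min, and replicate 2 was the lower one each time. Within replicates Dppa4 was higher at 60 min than in mitosis in both, with a log2 difference of 0.46 (SE 0.10, limma adjusted p = 0.00015) that was not called when the replicate block was left out (0.30, adjusted p = 0.46) and was −0.32 with the same total. Dppa2 was at 2.37, 1.49 and 3.34 TPM in mitosis, 2.74 and 1.97 TPM at 60 min, 2.02 and 3.00 TPM at 90 min (replicates 1 and 3) and 1.94 and 1.43 TPM at 120 min. Its values at 60 min lay inside the range of the mitotic ones, and the within-replicate difference was 0.23 (SE 0.09, limma adjusted p = 0.021). It was 0.01 without the block and −0.45 with the same total, and without replicate 2 or 3 it was not called (0.18 and 0.20). At 120 min Dppa2 was 0.30 below asynchronous cells on the log2 scale (SE 0.09, limma adjusted p = 0.0067; 0.57 below with the same total), where 7.25% of all genes were called lower.

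Dppa3 had a short peak. It lies on chromosome 6 from 122626410 to 122630272 on the plus strand and was listed in CTCF-AID cells only. Without IAA it was at 0.217, 0.366 and 0.104 TPM in mitosis, 0.437 and 0.281 TPM at 20 min, 1.24 and 1.72 TPM at 40 min, 1.45 and 1.01 TPM at 50 min, and 0.697 and 2.07 TPM at 60 min. Its asynchronous mean of 0.342 TPM is also under the filter of 0.5 TPM, so that it too was listed through its released cells. By 90 min it was at 0.219 and 0.395 TPM and by 120 min at 0.205 and 0.307 TPM, next to 0.390, 0.391 and 0.245 TPM in asynchronous cells. Every library from 40 to 60 min was above every other −IAA library. Its highest mean, at 40 min, was 6.46 times the mitotic mean. The stage of the peak is uncertain: the means at 40 and 60 min were 1.48 and 1.38 TPM, and with IAA the highest mean was at 60 min. The difference from mitosis at 40 min was 0.95 on the log2 scale (0.77 with the same total) and that between 120 and 60 min −0.86, again without a test.

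**Figure D3:**
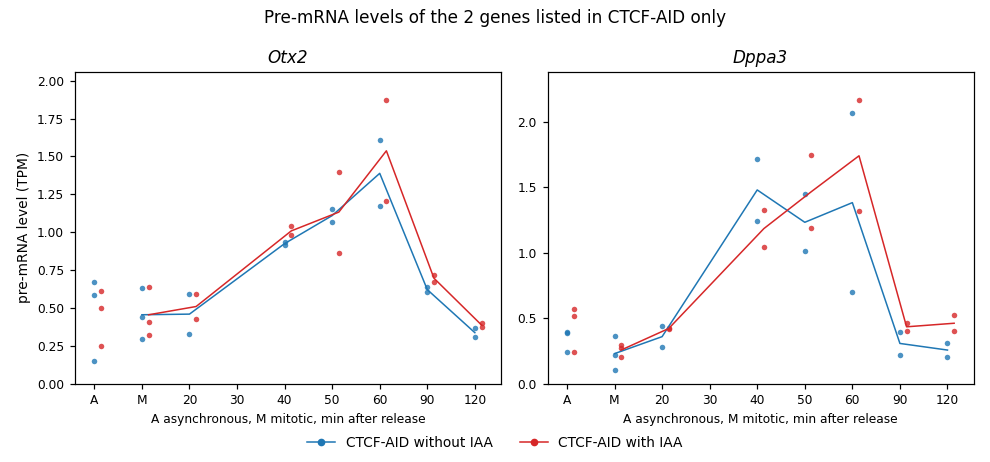
Pre-mRNA level in TPM (vertical axis, linear, from 0) of Otx2 and Dppa3 in CTCF-AID cells against stage, with points for libraries and lines for means, in blue for −IAA and red for +IAA. Both genes are highest between 40 and 60 min and are at 0.522 TPM or less at 120 min.

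Lin28a, the inhibitor of let-7 maturation, was the only one of the 10 genes that was called below mitosis at any stage in the TPM as deposited. It lies on chromosome 4 from 134003330 to 134018841 on the minus strand and overlaps the antisense transcript Gm13061 over 695 bp. In CTCF-AID −IAA cells it was at 5.02, 6.39 and 5.25 TPM in mitosis, and it was at 5.72 and 6.30 TPM at 20 min, 5.65 and 7.56 TPM at 40 min, 6.16 and 6.19 TPM at 50 min and 4.81 and 7.40 TPM at 60 min. No difference from mitosis was called at these stages, where the log2 differences were 0.11 to 0.22 and that at 60 min had a 95% confidence interval of −0.19 to 0.42. The differences at 40, 50 and 60 min were called lower under the same total, at −0.33, −0.56 and −0.73. It was then at 1.69 and 2.58 TPM at 90 min and 1.41 and 2.99 TPM at 120 min, below every library up to 60 min, and 120 min was also below asynchronous cells (2.75, 3.56 and 3.85 TPM) within each replicate. The difference from mitosis was −0.99 at 90 min (SE 0.15, limma adjusted p = 3.0e-06) and −1.06 at 120 min (SE 0.15, limma adjusted p = 1.6e-06), while the all-gene medians were 0.40 and 0.34. At 120 min Lin28a was 0.48 below asynchronous cells (SE 0.15, limma adjusted p = 0.0085). Asynchronous cells were in turn 0.58 below mitotic ones (SE 0.13, limma adjusted p = 0.0012).

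In CCNA-GFP cells Lin28a started lower, at 2.44, 3.59 and 3.46 TPM in mitosis, and was at 3.52 and 4.60 TPM at 40 min and 6.20 and 6.65 TPM at 60 min, with 5.92 TPM in the 50 min library between them. The difference from mitosis was 0.92 at 60 min (SE 0.14, limma adjusted p = 2.2e-06; with the same total −0.19, adjusted p = 0.075). It was at 3.21 and 5.55 TPM at 90 min (replicates 1 and 3) and 2.17 and 3.82 TPM at 120 min, and asynchronous cells were at 2.47, 3.06 and 3.78 TPM. The fall from 60 to 120 min was 0.93 on the log2 scale in CCNA-GFP (SE 0.14, limma adjusted p = 7.95e-05) and 1.17 in CTCF-AID −IAA (SE 0.16, limma adjusted p = 2.7e-06). Both were called in every alternative of the processing that was run. The mitotic levels of the lines, 3.16 ± 0.629 and 5.56 ± 0.734 TPM (SD, n = 3 each), come from separate tables and were not compared by a test.

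Dppa5a had the largest log2 difference from mitosis at 60 min in both lines on the log2(TPM + 1) scale, which understates low genes such as Dppa3. It lies on chromosome 9 from 78367052 to 78368177 on the minus strand, a span of 1126 bp of which 55.0% is exonic. In CCNA-GFP cells it was at 5.12, 5.58 and 5.06 TPM in mitosis, 7.20 and 6.66 TPM at 20 min, 14.9 and 12.0 TPM at 40 min and 24.2 and 20.8 TPM at 60 min, with 21.7 TPM in the 50 min library. It stayed at 19.8 and 20.3 TPM at 90 min and 17.8 and 21.1 TPM at 120 min, near the 22.7, 17.8 and 19.1 TPM of asynchronous cells. The log2 difference from mitosis was 1.19 at 40 min (SE 0.14, limma adjusted p = 9.6e-07) and 1.90 at 60 min (SE 0.14, limma adjusted p = 2.5e-10), and both were still called with the same total (0.66 each). Its CTCF-AID −IAA level was 6.39, 3.08 and 4.19 TPM in mitosis, 21.9 and 21.1 TPM at 50 min, 19.9 and 16.5 TPM at 60 min and 11.3 and 7.41 TPM at 120 min. These cells did not hold the level: the fall from 60 to 120 min was 0.91 on the log2 scale (SE 0.20, limma adjusted p = 0.00048; −0.53 with the same total), and at 120 min Dppa5a was 0.76 below asynchronous cells, which were at 23.9, 12.4 and 14.5 TPM (SE 0.18, limma adjusted p = 0.0013). In CCNA-GFP cells the difference between 60 and 120 min was −0.20 (95% confidence interval −0.50 to 0.10) and was not called. Whether the lines differ was not tested.

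After the first hour, the genes thus fell into those that were called lower at 120 than at 60 min and those that were not. In CCNA-GFP cells Lin28a, Trim28 and Sall4 fell (3 of 8, against 28.5% of all genes) and no gene rose, where 9.6% of all genes did. Of the CTCF-AID −IAA genes 7 of 10 fell, against 53.1% of all genes, and Dppa4, Utf1 and Zscan10 did not. Otx2 and Dppa3, which were listed through their released cells, are among the 7 and add no evidence to the count. With the same total, 2 of 8 were lower in CCNA-GFP (Lin28a and Trim28, 21.7% of all genes) and 6 of 10 in CTCF-AID −IAA (26.5%), where Dppa2 was at −0.048 and not called. Dppa4 and Zscan10 were then higher in both lines (2 of 8 and 2 of 10, against 24.4% and 25.6%), Dppa4 at 0.23 and 0.34. Without CCNA-GFP replicate 1 only Lin28a was called there. Without the replicate block the CCNA-GFP falls of Trim28 and Sall4 and the CTCF-AID falls of Dppa5a and Dppa2 were not called. At 120 min against asynchronous cells, Dppa4 and Zscan10 were higher in CCNA-GFP (2 of 8, against 63.4% of all genes) and Zscan10 in CTCF-AID −IAA (1 of 10, against 51%), a smaller share than of all genes in both lines. Lower than in asynchronous cells were 0 of 8 in CCNA-GFP (5.86% of all genes) and Dppa2, Dppa5a and Lin28a in CTCF-AID −IAA (3 of 10, against 7.25%). Without the replicate block no gene of CCNA-GFP or CTCF-AID −IAA was called in either direction against asynchronous cells. After scaling to one sum, 4 of 8 were lower in CCNA-GFP (Dppa2, Dppa5a, Lin28a and Trim28) and 7 of 10 in CTCF-AID −IAA, where 24.9% and 27.7% of all genes were, and 0 were higher in either (26.8% and 26.9%). Dppa5a in CCNA-GFP went from −0.04 to −0.58 there. Without replicate 2 no gene was called higher in either line, and without CTCF-AID replicate 1 or 2 the count of lower genes was 1 or 5. The low values of each library are multiples of a step that lies between 0.0184 and 0.0381 TPM, and once each library was divided by its own step Zscan10 and Dppa4 were not called in either line. For the fits with this division, without the block or without a replicate, the share of all genes called is not given here.

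**Figure D4:**
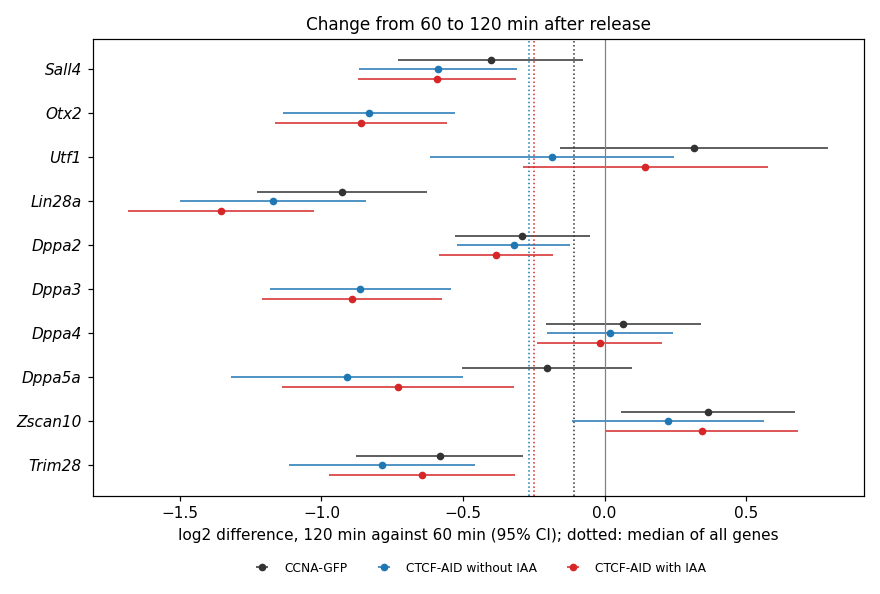
Log2 difference between 120 and 60 min with its 95% confidence interval (horizontal axis) for each gene, in black for CCNA-GFP, blue for CTCF-AID −IAA and red for CTCF-AID +IAA. Dotted lines are the medians over all genes, −0.11, −0.27 and −0.25. Lin28a lies furthest to the left, at −0.93, −1.17 and −1.36, and Zscan10 is to the right of 0 in all 3. Under the same total Dppa4 in CTCF-AID +IAA and Utf1 in CTCF-AID −IAA change sign, to 0.30 (called) and 0.19 (not called).

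With IAA, the counts on the deposited scale were near those without it. In +IAA cells none of the 10 genes was called against mitosis at 20 min (0% of all genes), 7 were higher at 40 min (58.7% of all genes) and 9 at both 50 and 60 min (78.2% and 82.2%). At 90 and 120 min 4 were higher (73.8% and 68.2%), and in asynchronous cells 6 were (40.9%). Lin28a was again called lower at 90 min, 120 min and in asynchronous cells (4.41%, 4.42% and 5.89% of all genes). From 60 to 120 min 7 of 10 genes fell, Otx2 and Dppa3 included (50.8% of all genes). At 120 min Zscan10 was higher than in asynchronous cells (1 of 10, against 47.2% of all genes) and Dppa2, Dppa5a and Lin28a were lower (3 of 10, against 8.43%). Scaled to one sum, 3 of 10 were higher than mitosis at each of 40, 50 and 60 min (33.2%, 41% and 40.7% of all genes) and 3, 5 and 4 lower (38.6%, 35.5% and 33.2%). At 90 and 120 min 3 were then higher (36.8% and 33.5%) and 4 and 3 lower (27.4% and 28.7%), and in asynchronous cells 5 were higher and 2 lower (29.8% and 22.4%). From 60 to 120 min 5 were then lower and 3 higher (27.2% and 26.6%), and against asynchronous cells 6 were lower and 1 higher at 120 min (29.2% and 26.2%). On the deposited scale the counts are those of the −IAA arm except at 40 min, where Utf1 and Zscan10 were not called with IAA (log2 differences 0.42 and 0.35, limma adjusted p = 0.064 and 0.050). The difference between the arms at 40 min was −0.23 for Utf1 (95% confidence interval −1.20 to 0.75) and −0.09 for Zscan10 (−0.61 to 0.42).

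Compared directly, +IAA against −IAA, 0 of 10 genes were called at any stage by limma (adjusted p under 0.1 and an absolute log2 difference over 0.2) and 0 had an unadjusted p under 0.05, as had 23 to 286 of all 10237 genes at single stages. Over all 10237 genes 0% were called in mitosis and at 20 and 40 min. The shares called at 50, 60, 90 and 120 min were 0.283%, 0.225%, 0.733% and 0.586%, and in asynchronous cells 1.01%. These shares belong to this test on TPM. With a count-based test (DESeq2) at the same cut-offs, the study reported genes that responded to CTCF depletion early after mitosis. A share of 0% here is therefore no sign that no gene responds. With the replicate as a block the 10 genes again gave 0 calls, and the smallest unadjusted p was 0.038 for Utf1 at 50 min (log2 difference 0.46, 95% confidence interval 0.03 to 0.89). The share of all genes called with the block is not given here. In the fit without the block the intervals at single stages reached from −1.20 to 1.44, both of them for Utf1. Utf1 at 50 min was at 15.9 and 10.9 TPM without IAA and 21.2 and 16.2 TPM with it, the widest gap of its time course.

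The mean difference over 20 to 120 min uses 12 libraries of each arm and is narrower. It ran from −0.16 for Dppa5a (95% confidence interval −0.46 to 0.15) to 0.11 for Dppa3 (−0.05 to 0.26), and 0 of 10 genes were called, against 1.72% of all genes. For Sall4 it was 0.02 (−0.12 to 0.17), for Otx2 0.05 (−0.08 to 0.19), for Trim28 −0.01 (−0.20 to 0.17) and for Lin28a 0.01 (−0.21 to 0.22). With the replicate block the interval of Dppa2 was −0.07 to 0.09 and that of Dppa4 −0.16 to 0.02, and the smallest adjusted p was 0.52, for Dppa5a. None of the intervals with the block reached beyond −0.32 or 0.24. The IAA effect over 20 to 120 min did not differ by the test from that in mitosis or in asynchronous cells for any of the 10 genes (0 called in each, against 0.0293% and 0.00977% of all genes, and 0 with an unadjusted p under 0.05). A missed threshold does not show that the arms are alike, and the intervals give the size of difference that remains possible.

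**Figure D5:**
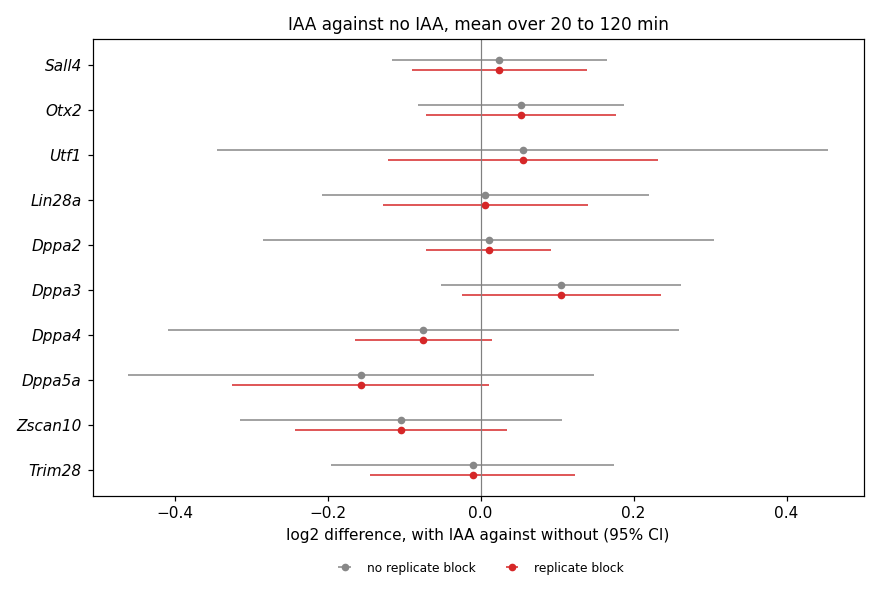
Mean log2 difference between +IAA and −IAA over 20 to 120 min with its 95% confidence interval (horizontal axis) for each of the 10 genes in CTCF-AID cells, in grey without and in red with the replicate as a block. All intervals include 0 in both fits.

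Paired by stage and replicate, the 18 +IAA libraries can be set against their −IAA counterparts. Dppa4 was lower with IAA in 16 of 18 pairs, with a median ratio of 0.920 and a range of 0.851 to 1.08. Dppa5a was lower in 13 of 18 (median ratio 0.879, range 0.634 to 1.13) and Zscan10 in 13 of 18 (median 0.949, range 0.778 to 1.09). Otx2 was higher in 14 of 18 (median 1.09, range 0.811 to 1.65) and Dppa3 in 13 of 18 (median 1.27, range 0.736 to 1.96). Sall4 and Lin28a were higher in 13 of 18 each (medians 1.03 and 1.04), Utf1 and Dppa2 in 10 of 18 each (1.02 for both) and Trim28 in 7 of 18 (0.974). These ratios are a description without a test.

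The other genes of the pathways around the 10 can be given by counts. Of 18 core and naive pluripotency genes 17 were analysed, and 16 were called higher than mitosis at 60 min in CCNA-GFP cells and 15 in CTCF-AID −IAA cells, with medians of 1.14 and 0.84 against all-gene medians of 0.79 and 0.63. Of all genes 88.3% and 84.8% were higher there. Pou5f1 (log2 differences 1.20 and 0.59), Nanog (1.22 and 0.61) and Esrrb (1.14 and 0.84) were among them. From 60 to 120 min 4 and 9 of the 17 fell, against 28.5% and 53.1% of all genes, Nanog in both lines (−0.90 and −1.02). Of 12 formative and primed genes 7 were listed, and 7 and 6 of them were higher at 60 min (all genes 88.3% and 84.8%), with medians of 0.80 and 0.57. Dnmt3b, a DNA methyltransferase of this state, was 0.80 and 0.37 above mitosis at 60 min and 1.07 lower at 120 than at 60 min in CTCF-AID −IAA, where CCNA-GFP had −0.28 (not called), and Dnmt3a, its relative, was 0.44 and 0.57 above mitosis.

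The 12 genes around Sall4, NuRD subunits and the related factor Sall1, were all listed, and 10 were higher at 60 min in CCNA-GFP cells and 9 in CTCF-AID −IAA cells (all genes 88.3% and 84.8%), where 1, Mta1, was lower (log2 difference −0.36, limma adjusted p = 0.00076), as were 2.7% of all genes. The deacetylase genes Hdac1 (1.46 and 0.72) and Hdac2 (1.35 and 1.08) were above mitosis at 60 min in both lines, and Chd4, the remodeller of the complex, was at 0.46 and 0.18, the latter not called. Of these 12 genes 4 fell from 60 to 120 min in CCNA-GFP and 9 in CTCF-AID −IAA, against 28.5% and 53.1% of all genes. In each line 1 rose, against 9.6% and 7.31% of all genes. All 10 partners of Trim28 in heterochromatin were higher at 60 min in both lines, where 88.3% and 84.8% of all genes were, with medians of 0.91 and 0.69, among them the histone methyltransferase gene Setdb1 (0.89 and 0.54) and the HP1 gene Cbx3 (1.13 and 0.48). Of 9 genes of the Lin28 and let-7 pathway 7 were listed, and 6 and 4 of them were higher at 60 min (all genes 88.3% and 84.8%), with medians of 0.59 and 0.39, below the all-gene medians, and 1 was lower in CTCF-AID −IAA, the exonuclease gene Dis3l2 (log2 difference −0.43; all genes 2.7%). Lin28b, the paralogue of Lin28a, was 0.65 and 0.78 above mitosis at 60 min, and from 60 to 120 min it was 0.33 higher in CCNA-GFP (limma adjusted p = 0.045) and at −0.11 in CTCF-AID −IAA (adjusted p = 0.36). From 60 to 120 min 1 and 4 of the 7 formative and primed genes, 2 and 4 of the 10 partners of Trim28 and 0 and 1 of the 7 let-7 pathway genes fell in CCNA-GFP and CTCF-AID −IAA. In none of these 5 lists was any gene called between the IAA arms at a single stage or over 20 to 120 min. Of all genes 0% to 1.01% were called at single stages and 1.72% over 20 to 120 min.

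Replicates differed in level in CTCF-AID cells, for these genes and in the sum over all listed genes. In the mitotic and the asynchronous groups of both arms replicate 2 had the lowest listed TPM sum. In mitotic −IAA cells it was 18606.3, against 20942.9 and 23302.0 in replicates 1 and 3. In mitosis replicate 2 was the lowest of the 3 for 8 of the 10 genes in the −IAA arm and for 8 in the +IAA arm, and in asynchronous cells for 8 and 7. Utf1 in asynchronous −IAA cells was at 9.88 TPM in replicate 2 against 19.3 and 19.4 TPM in replicates 1 and 3, and Dppa4 was at 2.80 TPM against 6.02 and 6.55 TPM. Lin28a was an exception in mitosis, where replicate 2 was the highest. The replicate block takes out a shift that is common to all stages of a replicate, and the origin of the shift was not tested.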

How the data were processed

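RNA-seq libraries were ribo-depleted and stranded. The authors aligned reads to mm10 with STAR, counted them with RSEM on Gencode gene models to which an unspliced isoform was added for each gene, and deposited the TPM of that isoform for 2 tables, 1 per line, without pooling replicates. Their filter asked for a mean TPM over 0.5 in asynchronous samples or in 2 or more post-release groups, and Otx2 and Dppa3 are listed in the CTCF-AID table alone. The headers of the asynchronous CTCF-AID columns are garbled and were read as asynchronous from the letters left. Versions of STAR and RSEM are not given in the sources used here.

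The 10 genes and the 5 gene lists were chosen with earlier results of these data known. All 10 genes were named, and of each list up to 4 of the first listed genes, as they stand in it. TPM were tested as log2(TPM + 1) with limma 3.58.1 in R 4.3.3 (lmFit, eBayes with trend) over all genes of a table, with Benjamini-Hochberg adjustment within each comparison. A fold change on this scale understates changes of low genes. Stage comparisons carried the replicate number as a block and were called at an adjusted p under 0.05. Comparisons of IAA arms had no block and were called at an adjusted p under 0.1 with an absolute log2 difference over 0.2, and interactions at an adjusted p under 0.1. Pairs of groups that share more than 1 replicate number were examined for pairing, and the other pairs were not. Deviations from the group means correlated between libraries with the same number in all 20 such pairs of CCNA-GFP (r 0.130 to 0.802) and all 88 of CTCF-AID (r 0.110 to 0.884). The numbers were thus taken to pair the libraries. The study describes independent replicates with a dish of its own for each time and treatment. In stage comparisons the block removes the shift shared by all stages of a replicate. Their p-values thus measure the spread that remains, pooled over the groups of a table and moderated by eBayes. A group with 1 library adds nothing to that spread. In the IAA comparisons without the block, the p-values measure the pooled spread between replicates of a group. The script was tested on simulated data with no stage course and no replicate shift. Of log2 differences of 0.5 at 60 min, it recovered 1.5% against mitosis in CCNA-GFP, 31.5% in CTCF-AID −IAA and 41% between IAA arms. Of differences of 1 it recovered 92%, 95% and 94%, with 11.7% false calls among those between IAA arms. In the mean IAA effect over 20 to 120 min it recovered 98% of differences of 0.5 and 76% of 0.3. Alternatives were a pseudocount of 0.1, a mean of at least 1 TPM, an equal sum in each library, division by the library's step factor, the block left out or added, each replicate left out, and an adjusted p of 0.05 for IAA. Gene positions are from Gencode on GRCm38, in which 9900 of 9911 and 10225 of 10237 symbols were matched. Promoters are from RefSeq (GRCm38.p6). Figures were drawn with matplotlib 3.10.9.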

Additional observations from a re-analysis of the deposited data

Results flagged for a closer look

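For 5 genes every library of one line or arm moved from its own mitotic library in one direction and every library of another in the opposite direction. None of these differences between lines or arms was tested, the lines come in separate tables, and each rests on 2 libraries per stage. Lin28a at 90 min had a log2 difference from mitosis of 0.39 in CCNA-GFP, −0.99 in CTCF-AID −IAA and −1.03 in CTCF-AID +IAA, all 3 of them called. These were −0.56, −1.48 and −1.55, all called lower, when each library was scaled to one sum of TPM, so that the directions were then not opposite. Dppa2 at 90 min was at 0.90 in CCNA-GFP (called), −0.16 in CTCF-AID −IAA and −0.17 in CTCF-AID +IAA. At 120 min Dppa2 was at 0.80 in CCNA-GFP (called) and −0.092 in CTCF-AID −IAA. Scaled to one sum, Dppa2 in CCNA-GFP was at 0.044 and 0.019 at 90 and 120 min, not called, and it was called lower in CTCF-AID, at −0.60 (−IAA) and −0.63 (+IAA) at 90 min and −0.50 (−IAA) at 120 min. Dppa3 at 120 min was at −0.026 without IAA and 0.15 with IAA in CTCF-AID cells, neither called.

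At 20 min the differences were small and none was called. Lin28a was at 0.070 in CCNA-GFP and −0.047 in CTCF-AID +IAA. Zscan10 was at 0.16 in CCNA-GFP and 0.17 in CTCF-AID −IAA against −0.036 in CTCF-AID +IAA. Dppa4 was at 0.13 in CCNA-GFP and 0.0028 in CTCF-AID +IAA, where the fitted value is above 0 although both replicates were below their own mitotic library.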

How the results depend on the processing

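Of the counts over the genes, 307 values under an alternative stayed within 1.5 times the reported one and 39 did not. Under the same total, the genes called higher than mitosis in CCNA-GFP were 2 at 40, 50 and 60 min, 1 at 90 min and 4 at 120 min; in CTCF-AID −IAA 3, 2 and 3 at 40, 50 and 60 min, and in +IAA 3 at each. Against asynchronous cells 0 were then higher at 120 min in CCNA-GFP and −IAA, and 4, 7 and 6 lower in CCNA-GFP, −IAA and +IAA. Without the replicate block 2, 5 and 4 were higher at 40 min in CCNA-GFP, −IAA and +IAA, and 3 in asynchronous cells of each CTCF-AID arm. In the same fit 1 fell from 60 to 120 min in CCNA-GFP, 0 were higher at 120 min than in asynchronous cells in any of the 3, and 0 and 1 were lower in −IAA and +IAA. The block added to the IAA comparisons changed no call and gave 0 there. With the library factor removed 0 were higher at 120 min than in asynchronous cells in any of the 3. Leaving out a replicate gave 5 to 6 higher at 40 min in CCNA-GFP, 1 to 3 lower from 60 to 120 min, and, against asynchronous cells, 0 to 3 higher in CCNA-GFP, 0 to 1 higher and 1 to 5 lower in −IAA and 0 to 2 higher in +IAA. Lower than mitosis at 90 and 120 min under the same total were 3 and 4 in −IAA and 4 and 3 in +IAA. The share of all genes called is given here for the deposited scale and the same total only. The other counts show how calls of these genes moved, and whether all genes moved alike is not shown. The cause was not tested.

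Values called on the deposited scale or under the alternative changed sign under the same total alone, which divides each library by a sum that differs between stages. Of those listed here, Lin28a in both CTCF-AID arms, Trim28 in −IAA and Dppa4 from 60 to 120 min in +IAA were not called on the deposited scale. Otx2 and Dppa3 fall under the filter of a mean of at least 1 TPM and have no value there. Against mitosis, Sall4 was then at −0.22 (60 min), −0.44 (120 min) and −0.18 (asynchronous) in CCNA-GFP and at −0.34 and −0.35 at 60 min in −IAA and +IAA. At 60 min Lin28a was at −0.19, −0.73 and −0.78 in CCNA-GFP, −IAA and +IAA, Dppa2 at −0.45 in both CTCF-AID arms, Dppa4 at −0.32 and −0.23 in them, and Zscan10 at −0.14 in CCNA-GFP and −0.064 in +IAA. Trim28 at 120 min was at −0.072 in CCNA-GFP and −0.32 in −IAA, and Dppa4 from 60 to 120 min in +IAA was at 0.30. Of the values of single genes 830 kept direction and call, 57 lost the call, 16 gained it, 38 uncalled ones moved by more than their error and 17 reversed. These 17 are the ones listed here and do not include changes of sign at other stages. In −IAA, Dppa2 went from 0.22 to −0.23 at 40 min and from 0.28 to −0.41 at 50 min. Dppa4 went there from 0.25 to −0.26 and from 0.34 to −0.41. Each was called higher on the deposited scale and lower under the same total. Dppa5a kept its sign and call at both times. TPM give no depth, so the limits are those of 1 to 3 libraries per group.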
